A study of Mus musculus with 12 samples.

Results

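Hearts of mice that ate a diet without branched-chain amino acids and carried an aortic constriction (BCAA-free TAC, 3 samples) were compared with hearts of sham-operated mice on the control diet (control sham, 3 samples), 6 of the 12 samples in the series. The samples were chosen by their labels alone. Branched-chain amino acids (BCAA) are leucine, isoleucine and valine, and transverse aortic constriction (TAC) narrows the aorta so that the left ventricle pumps against a raised pressure. All hearts came from male C57Bl/6J mice aged 12 weeks. The BCAA-free diet held no BCAA at all, the control diet held all essential amino acids with BCAA at the level of standard chow, and each diet began 4 days before surgery and went on for the 2 weeks after it. The other groups, 3 samples each, were TAC on the control diet (control TAC) and sham surgery on the BCAA-free diet (BCAA-free sham), and they are used only to place the comparison. Polyadenylated RNA of the heart was sequenced, and the labels do not name the part of the heart or say whether a sample was 1 heart or a pool. The p-values therefore weigh differences against the spread among the deposited samples, and part of that spread may be technical. Diet and surgery both differed between BCAA-free TAC and control sham, so the 6 samples alone cannot tell the effect of one from the other. The comparison asks how far overloaded hearts on the diet were from sham hearts on a complete diet.

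Pressure overload is known to turn on a fetal gene program in heart muscle cells, with natriuretic peptides and the slow myosin Myh7, and to make fibroblasts lay down collagen and matricellular proteins. Muscle normally breaks BCAA down through a mitochondrial pathway that starts with the transaminase Bcat2 and the BCKDH complex, and leucine also signals through mTORC1. Heart cells also hold a circadian clock, a transcription loop that times the expression of many metabolic genes over the day.

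Of 15089 genes tested, 815 passed at an adjusted p under 0.05 (limma with Benjamini-Hochberg adjustment over all genes, called genes below), which is 5.40%. Of these, 397 rose in BCAA-free TAC (2.63%) and 418 fell (2.77%), and the median log2 fold change over all genes was -0.0029. Counts of list members called below are to be read beside these shares. Values are recovered whole reads divided by 1 size factor per library, called normalized reads, and fold changes are on the log2(normalized reads + 1) scale with their standard error. A log2 fold change of at least 1 was reached by 95 of the genes that rose and 92 of those that fell. Values of the groups did not overlap for 28.6% of all genes tested. The 12 largest rises among well-expressed genes were Dbp, Per2, Per3, Ciart, Cfd, Tmem163, Hlf, Cyp2e1, Cebpb, Car3, Thbs4 and Tcf23, of which Dbp, Per2, Per3, Ciart and Hlf belong to the clock lists. The 12 largest falls were Arntl, Crybg3, Spon2, Tmem171, Adam19, Zfp871, Lcor, Lmbrd2, Mthfd2, Sgcd, Slc41a3 and Cyr61. The count of called genes rests on single libraries: it was 184 and 576 without control sham replicate 1 and 2, 2255 without control sham replicate 3, and 282, 170 and 114 without BCAA-free TAC replicate 1, 2 and 3. In all 6 of these fits, 97 genes were called.

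**Figure D1:**
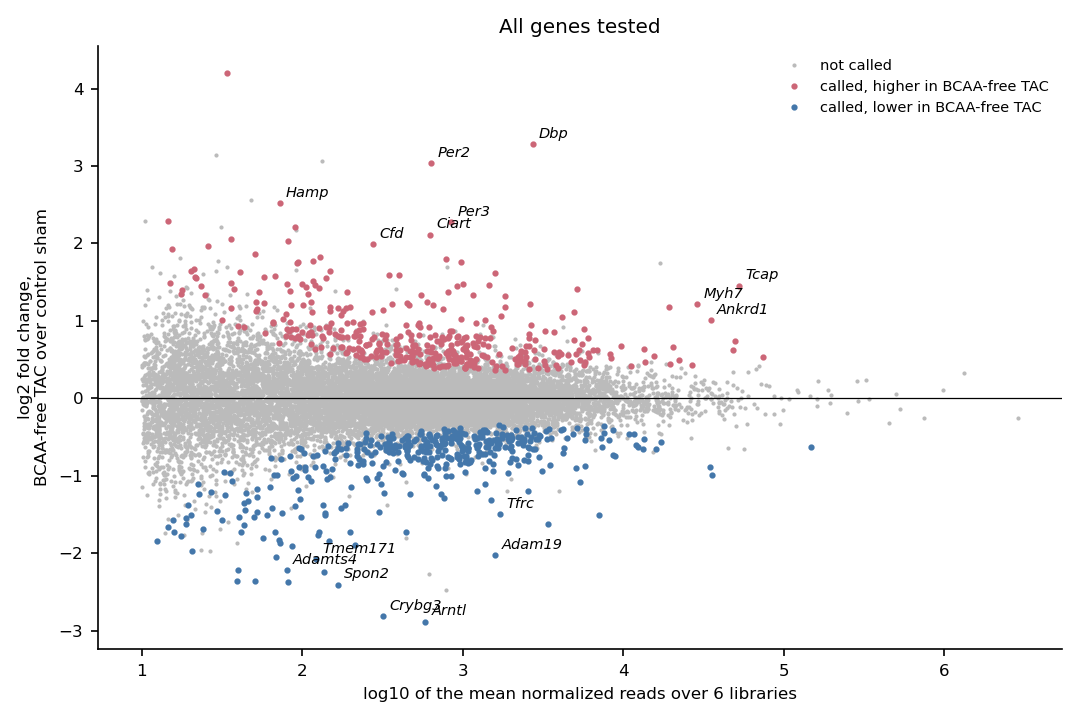
Log2 fold change of BCAA-free TAC over control sham for the 15089 genes tested (y axis) against the log10 of their mean normalized reads over the 6 libraries (x axis). Red points are the 397 genes that rose, blue points the 418 that fell and grey points genes that did not pass; clock genes lie at both edges, with Dbp and Per2 at the top and Arntl at the bottom.

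The libraries differed in ways that moved with the groups. Control sham held 23301942 to 34801853 reads and BCAA-free TAC 37485985 to 42835379, with no overlap. The genes that rose had a median GC content of 54.6% and a median length of 3054 bases, those that fell 46.5% and 5520 bases, and all genes tested 49.8% and 3233 bases. With the GC and length trend of each library removed, 1105 genes were called, and 672 of the 815 were among them. The part of depth, GC content and length in single results was not tested beyond that fit, whose value is given where it ended or made the call of a named gene.

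The clock genes held the largest changes, in opposite directions for the activators and their targets. Of 17 core clock genes measured, 6 rose and 4 fell, and of 18 clock output genes 9 rose and 3 fell, against 2.63% and 2.77% of all genes. Arntl (BMAL1), Clock and Npas2 encode the activators of the loop, which bind E-boxes and switch on the repressors Per1 to Per3, Cry1, Cry2 and Ciart. The same activators drive Dbp, Tef and Hlf, factors that act through D-boxes, while REV-ERB proteins (Nr1d1, Nr1d2) repress and ROR proteins such as Rora activate Arntl through ROR elements (RORE).

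The promoters of a gene that fell and of 3 genes that rose are shown because they hold letters of the elements just named. They are RefSeq sequences of GRCm38.p6, from 250 bases before to 50 bases after a transcription start, on the gene's own strand. Capitals mark the RORE of Arntl (chr7:113207261-113207560, plus strand), the E-boxes of Ciart (chr3:95882179-95882478, minus strand) and Tef (chr15:81802423-81802722, plus strand), and the D-boxes of Per3 (chr4:151044616-151044915, minus strand).
Arntl: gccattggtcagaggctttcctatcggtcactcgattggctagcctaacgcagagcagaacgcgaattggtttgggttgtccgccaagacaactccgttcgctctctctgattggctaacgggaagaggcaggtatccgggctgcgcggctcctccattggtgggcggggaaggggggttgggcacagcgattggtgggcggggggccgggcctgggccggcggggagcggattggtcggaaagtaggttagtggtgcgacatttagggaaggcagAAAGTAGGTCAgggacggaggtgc
Ciart: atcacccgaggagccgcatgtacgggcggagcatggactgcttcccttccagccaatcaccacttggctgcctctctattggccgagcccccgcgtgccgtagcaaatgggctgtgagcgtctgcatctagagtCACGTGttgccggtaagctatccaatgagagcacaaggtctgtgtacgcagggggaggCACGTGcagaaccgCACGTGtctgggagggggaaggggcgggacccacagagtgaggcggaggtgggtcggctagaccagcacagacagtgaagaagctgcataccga
Tef: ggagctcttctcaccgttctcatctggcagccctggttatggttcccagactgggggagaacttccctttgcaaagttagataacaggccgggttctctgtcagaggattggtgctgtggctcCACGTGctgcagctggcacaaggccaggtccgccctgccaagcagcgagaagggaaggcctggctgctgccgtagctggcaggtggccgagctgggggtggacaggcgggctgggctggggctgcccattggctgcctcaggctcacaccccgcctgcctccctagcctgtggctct
Per3: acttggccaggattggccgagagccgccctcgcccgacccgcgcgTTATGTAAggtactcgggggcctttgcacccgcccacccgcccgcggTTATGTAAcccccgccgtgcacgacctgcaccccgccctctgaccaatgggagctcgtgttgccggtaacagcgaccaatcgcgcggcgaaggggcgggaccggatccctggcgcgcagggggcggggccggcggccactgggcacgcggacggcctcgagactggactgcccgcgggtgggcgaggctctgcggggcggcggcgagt
The RORE of Arntl begins 26 bases after the start, and the 3 E-boxes of Ciart begin 116, 58 and 44 bases before it. Both strands were searched for the letters CACGTG (E-box) and TTANGTAA (D-box, N being any base) and for the RORE, an A/T-rich stretch followed by GGTCA. Over all 32851 RefSeq promoters of this length, 7.15% held the E-box letters, 2.32% the D-box letters and 0.606% the RORE letters. The 29 clock genes in the table had 40 promoters, of which 9 held an E-box, 1 a D-box and 2 a RORE. An E-box lay in 5 of 14 promoters of genes that rose (2 of them of Tef), in 1 of 9 of those that fell and in 3 of 17 of those not called. Arntl and Leo1, both of which fell, held the 2 ROREs. A match is a description of the letters and not of a bound site.

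Arntl, the gene with the smallest p of the whole comparison (chromosome 7, 113207465 to 113314126, GRCm38), had 1007, 988 and 1082 normalized reads in the control sham samples and 118, 164 and 137 in the BCAA-free TAC samples. Every BCAA-free TAC value lay far under every control sham value, a 7.37-fold fall by the fitted log2 fold change. The log2 fold change was -2.88 ± 0.14 (limma, adjusted p = 2.93e-05). Its partner Clock went from 1796, 1856 and 1450.0 to 782, 743 and 697 normalized reads (-1.19 ± 0.12, adjusted p = 0.00163). Npas2, which can take the place of Clock, went from 205, 200.2 and 204 to 79.8, 70.9 and 66.6 (-1.48 ± 0.14, adjusted p = 0.00163). The replicates of each group were close for these 3 activators, and the groups stood apart. Rora, at -0.24 ± 0.12, did not pass (adjusted p = 0.259).

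The repressors and the D-box factors were higher. Per2 (chromosome 1, 91415982 to 91459324) had 88.6, 139.9 and 199 normalized reads in control sham and 1312, 1041 and 1029 in BCAA-free TAC, a log2 fold change of 3.04 ± 0.25 (adjusted p = 0.00096). Per3 went from 289.8, 381 and 209 to 1609, 1388 and 1185 normalized reads (2.27 ± 0.20, adjusted p = 0.0012). Ciart, a repressor of the activator pair, went from 131, 292 and 308 to 951, 1268 and 804 (2.12 ± 0.30, adjusted p = 0.00806). Groups did not overlap for any of the 3. Dbp, the D-box activator (chromosome 7, 45705088 to 45710203), had the largest rise among well-expressed genes, from 526, 731 and 329 to 5299, 5090.0 and 4390.0 normalized reads (3.29 ± 0.24, adjusted p = 0.000799). Its relatives Hlf and Tef rose by 1.80 ± 0.18 and 1.41 ± 0.15 (adjusted p = 0.00176 and 0.00201). Usp2, a ubiquitin protease under clock control, rose by 1.05 ± 0.14 (adjusted p = 0.00641). Smaller rises were those of Bhlhe41 (1.34 ± 0.14), Cry2 (0.93 ± 0.13), Nr1d2 (0.75 ± 0.14) and Wee1 (0.92 ± 0.13). Several members of the loop did not pass, with log2 fold changes of 0.36 for Per1, -0.16 for Cry1 and -0.22 for Nr1d1. Nfil3, a repressor at D-boxes, had values of 449.5, 732 and 1980.0 and 148, 179 and 220.4 that did not overlap, yet its adjusted p was 0.0509.

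Clock genes were called in every fit that left out 1 library. Called core clock genes numbered 9, 10 and 13 without control sham replicate 1, 2 and 3, and 9, 9 and 8 without BCAA-free TAC replicate 1, 2 and 3. Called clock output genes numbered 10, 11 and 15 without control sham replicate 1, 2 and 3, and 10, 10 and 8 without BCAA-free TAC replicate 1, 2 and 3. Arntl, Clock, Npas2, Per2, Per3, Ciart, Cry2, Bhlhe41, Dbp, Hlf, Tef, Usp2, Tspan4, Wee1 and Leo1 were called in each of those 6 fits. With the spread estimated over all 12 libraries, Ciart had an adjusted p of 0.0856.

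In the BCAA-free sham samples the same genes varied widely between replicates. Scaled over all 12 libraries, Arntl had 502, 292 and 830.3 normalized reads there and 790.5, 707 and 739 in control TAC. Dbp had 2461, 3232 and 522 in BCAA-free sham and 761, 887 and 696 in control TAC. The BCAA-free sham replicates thus lay far apart for both genes, while control TAC stayed tight. BCAA-free TAC differed from control TAC by -2.38 for Arntl (adjusted p = 0.000179), -1.66 for Npas2 (0.000286), 1.84 for Per2 (0.000731) and 2.70 for Dbp (0.00869), by limma over all 12 libraries. Of the core clock genes, 6 were higher and 4 lower than in control TAC, against 14.6% and 16.7% of all genes. By the same fit, the difference from BCAA-free sham was -1.79 for Arntl (adjusted p = 0.0258) and -0.816 for Clock (0.0124). Npas2 (-1.001, adjusted p = 0.0715), Per2 (0.903, 0.137) and Dbp (1.65, 0.196) did not pass there. Neither did Per3 (0.991, 0.219), Ciart (1.224, 0.363) or Hlf (0.647, 0.338). The labels give no hour of collection, and whether it differed between the groups was not tested.

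**Figure D2:**
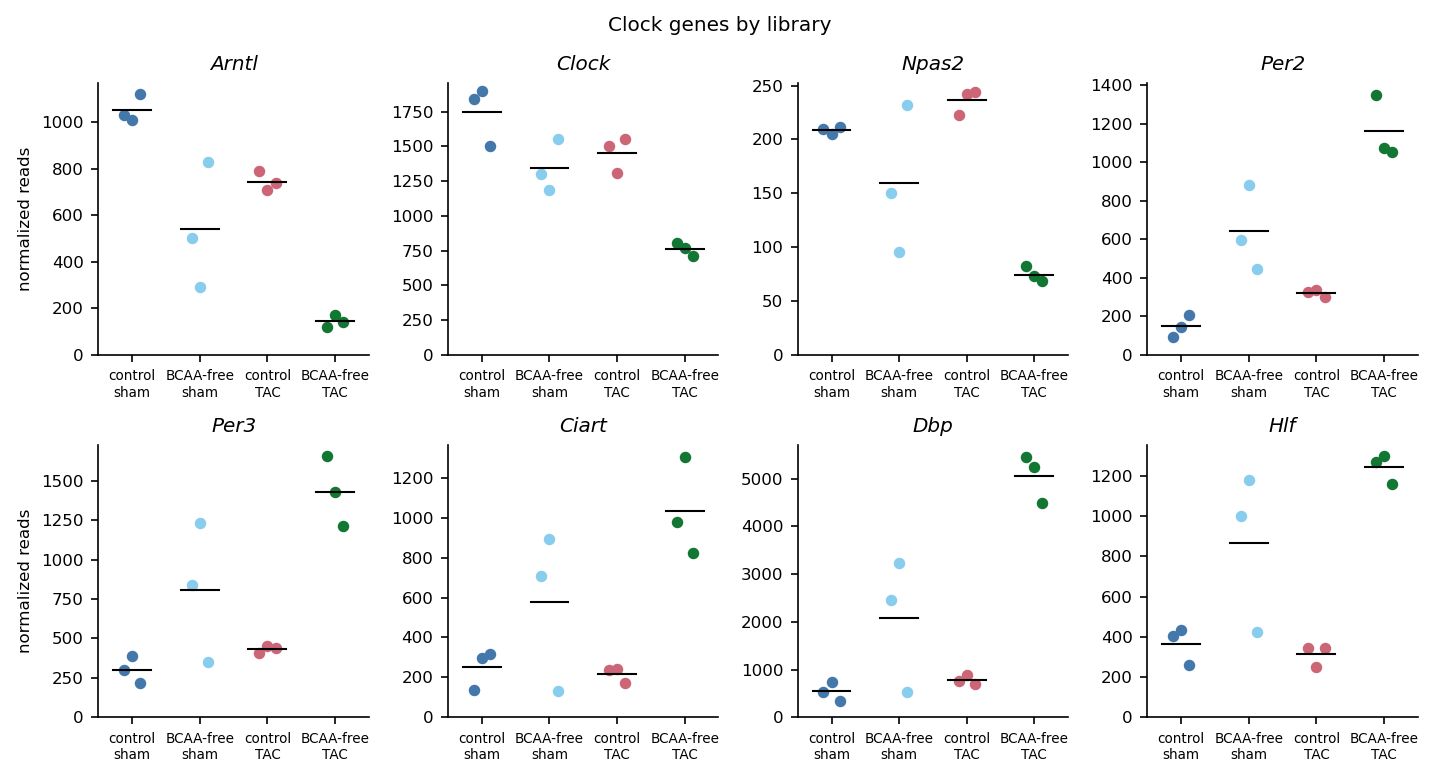
Normalized reads (linear y axes from 0, scaled over all 12 libraries) of 8 clock genes in each library of the 4 groups; points are libraries and black lines group means, n = 3. Arntl, Clock and Npas2 are lowest and Per2, Per3, Ciart, Dbp and Hlf have their highest means in BCAA-free TAC, and the BCAA-free sham libraries are far apart for most of the 8.

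The classical markers of an overloaded heart split, with Myh7 and Ankrd1 raised and the values of Nppb and Acta1 overlapping control sham. Nppa, the atrial natriuretic peptide, had 8756, 3279 and 12372 normalized reads in control sham and 14519, 25408 and 36988 in BCAA-free TAC. The groups did not overlap, but the spread was wide: the log2 fold change was 1.75 ± 0.56 (adjusted p = 0.137), and an exact two-sided permutation test over the 6 samples gave p = 0.1, the smallest it can give. Nppb, the B-type peptide, had 5507, 4161 and 10759 and 6609, 5831 and 8123 normalized reads, which overlapped, and the fitted difference was 0.11 ± 0.30 (adjusted p = 0.864; exact permutation p = 1). Acta1, the skeletal actin of the fetal program, had 11297, 7179 and 15350 and 12438, 10529 and 12603, and the fitted difference was 0.14 ± 0.23 (adjusted p = 0.776; exact permutation p = 0.8). So the 3 markers most used to read out overload gave no call in this comparison.

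Myh7, the slow myosin heavy chain, had 17456, 20163 and 14461 normalized reads in control sham and 33713, 38210 and 49985 in BCAA-free TAC, all BCAA-free TAC values being higher. It rose by 1.22 ± 0.17 (adjusted p = 0.00705; exact permutation p = 0.1). Ankrd1, a stretch-responsive protein of the sarcomere and nucleus, went from 23443, 20223 and 26613 to 47634, 43677 and 49088 and rose by 1.01 ± 0.12 (adjusted p = 0.00433). Rcan1, an inhibitor of calcineurin and a target of its signal, fell from 3459, 3235 and 3619 to 1851, 2255 and 2521 (-0.65 ± 0.12, adjusted p = 0.0205). Over the 19 measured genes of the hypertrophy and fetal program list, 2 rose, 1 fell and 16 did not pass, and their median log2 fold change was 0.13. The same median was 0.91 for control TAC and -0.073 for BCAA-free sham, each against the same control sham samples. Myh7 and Ankrd1 were called in each fit that left out 1 library, and Rcan1 in 3 of 6. With the spread estimated over all 12 libraries, the adjusted p was 0.0853 for Myh7 and 0.0564 for Rcan1. The list had 6 called genes without control sham replicate 3 and 2 or 3 without each of the other libraries.

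Against control TAC, which differs from BCAA-free TAC in diet alone, 8 of the 19 genes were lower and 1 was higher. Of all genes, 16.7% were lower and 14.6% higher. The difference from control TAC on the log2 scale was -2.61 for Acta1 (adjusted p = 0.000141), for Nppb -1.51 (0.00895), for Rcan1 -1.56 (0.000189), for Xirp2 -1.78 (0.000769) and for Ankrd1 -0.92 (0.0243). Those of Myh7 (-0.80, adjusted p = 0.142) and Nppa (-0.66, 0.478) did not pass. Control TAC replicate 2 lay far from the other control TAC libraries, and without it 7 of the 19 genes were lower. By limma over all 12 libraries, Acta1 was lower in BCAA-free sham than in control sham (-1.40, adjusted p = 0.0289). From BCAA-free sham to BCAA-free TAC it was higher by 1.53 (0.0462). The latter difference did not pass for Myh7 (0.61, 0.437), Ankrd1 (0.73, 0.197), Nppa (1.74, 0.210), Nppb (0.83, 0.245) or Rcan1 (-0.043, 0.937). In these bulk samples, fewer cells of a type and less RNA per cell cannot be told apart.

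**Figure D3:**
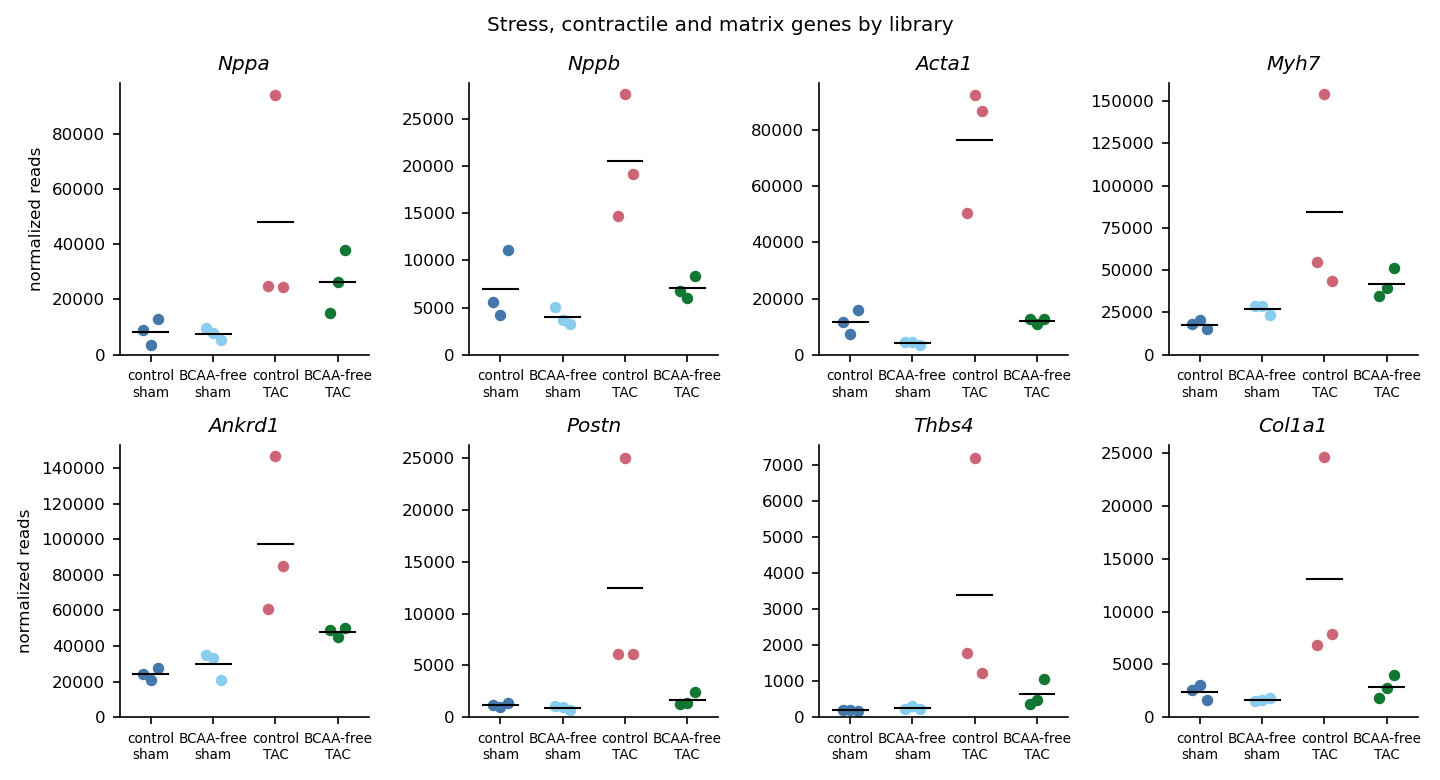
Normalized reads (linear y axes from 0, scaled over all 12 libraries) of stress, contractile and matrix genes in each library of the 4 groups; points are libraries and black lines group means, n = 3. In BCAA-free TAC the Nppb and Acta1 values overlap control sham, Myh7 and Ankrd1 lie between control sham and the control TAC mean, and 1 control TAC library stands far above the others for Nppa, Myh7, Postn, Thbs4 and Col1a1.

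Markers of atrial and conduction tissue moved with the same groups. Of the 15 measured, 4 rose (Dkk3, Nr2f2, Pam and Stard10) and none fell, against 2.63% and 2.77% of all genes, with a median of 0.60. Dkk3 was not called with the GC and length trend removed (1.27, adjusted p = 0.101). Called members numbered 0, 2 and 5 without control sham replicate 1, 2 and 3, and 3, 0 and 0 without BCAA-free TAC replicate 1, 2 and 3. The summed level of the list, which includes Nppa, was 35171 to 49440 normalized reads in control sham and 55081 to 96149 in BCAA-free TAC. The atrial light chains Myl7 and Myl4 and the atrial calcium pump inhibitor Sln did not pass. Myl7 had 3209, 2101 and 4662 and 3509, 5330.0 and 7821 normalized reads, so that BCAA-free TAC replicate 1 lay within the control sham range and replicates 2 and 3 above it. Bmp10, a growth factor of the atria, was uneven in both groups, with 1090.0, 37.0 and 42.7 and 150.1, 3364 and 119.6. The share of atrial tissue in the samples, and its part in the Nppa values, was not tested.

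Among sarcomere genes, Tcap changed most. Tcap encodes telethonin, the cap of titin at the Z-disc. It went from 24593, 31826 and 28257 to 83641, 75482 and 72453 normalized reads, a rise of 1.46 ± 0.12 (adjusted p = 0.00096) in each fit that left out 1 library. It was also higher than in control TAC, by 1.75 (adjusted p = 9.64e-05). Myom2, an M-band protein, rose from 34507, 43013 and 37082 to 58046, 56888 and 61926 (0.63 ± 0.11, adjusted p = 0.017). Nebl, the cardiac nebulette, fell by 0.62 ± 0.13 (adjusted p = 0.0282). Ttn, the giant spring titin, was called at -0.62 ± 0.13 (adjusted p = 0.03), but it was at -0.0004 (adjusted p = 0.999) with the GC and length trend removed. The remaining 21 of the 25 genes did not pass, among them Myh6, the fast myosin (1213813, 1347039 and 981880 and 1423654, 1521315 and 1460784, adjusted p = 0.172). Called sarcomere genes numbered 1, 2 and 7 without control sham replicate 1, 2 and 3, and 1, 1 and 1 without BCAA-free TAC replicate 1, 2 and 3.

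Calcium handling genes gave 1 call of 18 and cardiac ion channel genes 3 of 21, against 5.4% of all genes. Slc8a1, the sodium-calcium exchanger, fell from 7417, 7048 and 5523 to 3664, 4030.0 and 2984 normalized reads (-0.90 ± 0.15, adjusted p = 0.0132), the single call among 18 calcium handling genes. Atp2a2, the sarcoplasmic calcium pump, did not pass at 0.061 ± 0.12 (adjusted p = 0.822). Of 21 cardiac ion channel genes, the potassium channels Kcnh2 (0.75 ± 0.14, adjusted p = 0.0218) and Kcna5 (0.73 ± 0.16, 0.0329) rose and Kcnd3 (-0.62 ± 0.10, 0.0144) fell. Slc8a1 was called in 4 of 6 fits that left out 1 library, Kcnd3 in 3, Kcnh2 in 2 and Kcna5 in 1.

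The collagens of scar tissue, Col1a1, Col1a2 and Col3a1, gave no call, and the called collagens were mostly lower. Of 22 collagen genes, Col5a3 (-0.69 ± 0.10, adjusted p = 0.00806), Col15a1 (-0.76 ± 0.15, 0.0257) and Col4a1 (-0.60 ± 0.13, 0.0327) fell and Col18a1 (0.92 ± 0.17, 0.0191) rose. Col5a3 encodes a chain of fibril-forming collagen V, Col15a1 and Col4a1 encode chains found in basement membranes, and Col18a1 the precursor of endostatin. Col1a1, the main chain of scar collagen, had 2521, 2969 and 1548 normalized reads in control sham and 1808, 2656 and 3956 in BCAA-free TAC, values that overlapped (0.24 ± 0.31, adjusted p = 0.703; exact permutation p = 0.6). The median over the list was -0.08, beside 1.44 for control TAC and -0.38 for BCAA-free sham. Against control TAC itself, 20 of the 22 collagens were lower, where 16.7% of all genes were, and 19 were lower without control TAC replicate 2. Called collagens against control sham numbered 1, 4 and 5 without control sham replicate 1, 2 and 3, and 2, 1 and 2 without BCAA-free TAC replicate 1, 2 and 3.

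Matricellular proteins were the matrix group with most rises. Of 34 measured, 8 rose and 3 fell, against 2.63% and 2.77% of all genes, with a median of 0.43. Thbs4, a thrombospondin of stressed heart muscle, went from 188, 193 and 175 to 363, 466 and 1034 normalized reads (1.59 ± 0.31, adjusted p = 0.0233). Wisp2, a secreted protein of the CCN family, went from 186, 165 and 246 to 394, 452 and 463 (1.15 ± 0.16, adjusted p = 0.00801). All 3 BCAA-free TAC values were higher in both cases, and with the spread estimated over all 12 libraries neither passed (adjusted p = 0.148 and 0.163). Cilp, Comp, Wisp1, Thbs2, Fbln5 and Fbln2 rose by 1.16, 1.23, 0.85, 0.64, 0.51 and 0.39. Fbn1, the main protein of microfibrils, fell from 3368, 3053 and 2823 to 1632, 1852 and 1816 (-0.80 ± 0.10, adjusted p = 0.00571), and Cyr61 (-1.51 ± 0.33) and Vcan (-0.52 ± 0.12) fell as well. Postn, a marker of activated fibroblasts, had 1188, 919 and 1282 and 1235, 1327 and 2391 normalized reads and did not pass (0.49 ± 0.23, adjusted p = 0.238; exact permutation p = 0.2), with BCAA-free TAC replicate 3 above the rest.

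Against control TAC the log2 difference was -2.59 for Postn (adjusted p = 0.00538), for Thbs4 -2.12 (0.026) and for Fbn1 -2.26 (2.39e-05). In all, 20 of the 34 were lower than in control TAC and none was higher, against 16.7% and 14.6% of all genes. Without control TAC replicate 2, 19 were lower. With the trend of GC content and length removed, 1 was higher and 20 lower. Called matricellular genes against control sham numbered 3, 7 and 10 without control sham replicate 1, 2 and 3, and 8, 2 and 3 without BCAA-free TAC replicate 1, 2 and 3, and Cyr61 was not called with the trend removed (-1.58, adjusted p = 0.0666). Fibroblast markers gave 1 call of 16 (Col15a1, lower), and their summed level was 78470 to 88174 normalized reads in control sham and 74504 to 85023 in BCAA-free TAC.

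Among remodelling enzymes of the matrix, 3 metalloproteases fell. Adam19, a membrane metalloprotease (chromosome 11, 46055992 to 46147343), had 2294, 2086 and 3309 normalized reads in control sham and 602, 651 and 601 in BCAA-free TAC. It fell by 2.02 ± 0.16 on the log2 scale (adjusted p = 0.00096). The aggrecanase Adamts4 went from 95.1, 121 and 182 to 32.1, 25.1 and 23.9 (-2.21 ± 0.26, adjusted p = 0.00375), and Adamts9 from 705, 705 and 880.2 to 429, 413 and 316 (-0.99 ± 0.15, adjusted p = 0.00922). All 3 were called in each fit that left out 1 library. Against control TAC they differed by -2.17, -3.17 and -1.77 (adjusted p = 0.00194, 3.53e-05 and 9.38e-06). Against BCAA-free sham they differed by -0.83, -0.95 and -0.093, and none passed (adjusted p = 0.261, 0.134 and 0.749). By the same fit, BCAA-free sham lay under control sham for Adamts4 (-1.26, adjusted p = 0.0417) and Adamts9 (-0.89, 0.00568). Adam19 did not pass there (-1.19, 0.116). Of the 26 remodelling enzymes, 22 did not pass in BCAA-free TAC against control sham.

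Genes of TGF-beta and BMP signalling mostly rose where they were called. Of 23 measured, Smad7, the inhibitory Smad, rose from 301, 422 and 231 to 932, 678 and 751 normalized reads (1.33 ± 0.21, adjusted p = 0.0116). The ligands Bmp4 (0.74 ± 0.13) and Bmp6 (0.66 ± 0.11) and the co-receptor Eng (0.49 ± 0.10) rose too, with adjusted p of 0.016, 0.0148 and 0.0256. Smad3, which carries the TGF-beta signal, fell by 0.59 ± 0.12 (adjusted p = 0.0267). Called members numbered 1, 6 and 7 without control sham replicate 1, 2 and 3, and 1, 1 and 1 without BCAA-free TAC replicate 1, 2 and 3.

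Contractile genes of smooth muscle rose. Of 17 smooth muscle and pericyte markers, 5 rose and none fell, against 2.63% and 2.77% of all genes, with a median of 0.42. Myh11, the smooth muscle myosin, went from 1658, 1982 and 1149 to 3633, 3370.0 and 3858 normalized reads (1.21 ± 0.17, adjusted p = 0.00821). Lmod1 (1.11 ± 0.16, adjusted p = 0.00803), an actin nucleator of smooth muscle, and Cnn1 (1.18 ± 0.19, 0.0128), calponin, rose alike, and Mylk (0.67 ± 0.12) and Tagln (0.67 ± 0.16) less. The summed level of the list was 102214 to 115818 normalized reads in control sham and 131620 to 140287 in BCAA-free TAC, with no overlap. Myh11, the called gene with most reads, had means of 1596 and 3620. The sum thus rests mostly on members that were not called. Against control TAC, Lmod1 was higher by 0.48 (adjusted p = 0.046) and Myh11 had a difference of 0.41 that did not pass (0.131). By limma over all 12 libraries, BCAA-free sham lay above control sham for Myh11 (1.18, adjusted p = 0.0148), Lmod1 (1.12, 0.01) and Mylk (0.73, 0.00568). Cnn1 (0.84, 0.132) and Tagln (0.58, 0.103) did not pass there. BCAA-free TAC differed from BCAA-free sham by 0.036, -0.0096, -0.062, 0.34 and 0.087 for Myh11, Lmod1, Mylk, Cnn1 and Tagln, and none passed. The share of vessel tissue in the samples was not tested. Called members numbered 3, 4 and 8 without control sham replicate 1, 2 and 3, and 3, 4 and 2 without BCAA-free TAC replicate 1, 2 and 3.

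Of the class II, macrophage and lymphocyte genes, 2 of 11, 1 of 24 and 0 of 7 were called, and those called fell. Over all genes, 5.4% were called. Of 11 class II antigen presentation genes, H2-Aa, an alpha chain of class II, fell from 666, 587 and 897 to 310.5, 449.6 and 463 normalized reads (-0.81 ± 0.19, adjusted p = 0.0412), and the beta chain H2-Eb1 fell from 761, 715 and 1296 to 396, 489.5 and 556 (-0.90 ± 0.22, adjusted p = 0.0454). The median of the list was -0.58, and 10 of its 11 log2 fold changes were under 0. Both genes lost their calls without control sham replicate 1 or any 1 BCAA-free TAC replicate, and kept them without control sham replicate 2 or 3. In BCAA-free sham the class II median was -0.86. H2-Aa and H2-Eb1 differed there from control sham by -1.06 and -1.26 (limma over all 12 libraries, adjusted p = 0.0224 and 0.028). Among 24 macrophage markers, Mrc1, the mannose receptor, fell by 0.48 ± 0.11 (adjusted p = 0.0389), a call made in 1 of 6 fits that left out 1 library and lost with the trend removed (-0.34, adjusted p = 0.0826). Their summed level was 11702 to 16979 normalized reads in control sham and 10876 to 12794 in BCAA-free TAC. The median over the macrophage markers was -0.28, beside -0.52 for BCAA-free sham. Of the lymphocyte markers 7 of 23 were tested and none was called, with no member at an unadjusted p under 0.05 by limma and none called by edgeR, DESeq2 or limma-voom.

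Interferon-stimulated genes were under control TAC and mostly slightly under control sham, with 27 of 30 log2 fold changes against control sham under 0. Rsad2 (viperin) fell from 536, 413 and 541 to 241, 312 and 229.8 normalized reads (-0.93 ± 0.16, adjusted p = 0.0148), and the other 29 of 30 did not pass against control sham. Rsad2 was called in 3 of the 6 fits that left out 1 library. The median was -0.26, beside 0.74 for control TAC and -0.24 for BCAA-free sham. Tested against control TAC directly, 29 of the 30 were lower, where 16.7% of all genes were. Among them were Irf7 (-1.38, adjusted p = 0.000672), the master regulator of the response, Ifit2 (-1.13, 0.000139) and Ifi44 (-1.91, 0.000167). Without control TAC replicate 2, 23 of the 30 were lower, and with the trend removed 28. Class II genes were lower than in control TAC for 8 of 11, and macrophage markers for 18 of 24, or 11 of 24 without control TAC replicate 2.

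Only Mki67 and Kif11 were called among the cell cycle genes, and both fell. Mki67, a marker of cycling cells, had 136, 67.2 and 141 normalized reads in control sham and 26.0, 39.9 and 23.9 in BCAA-free TAC, which is -1.86 ± 0.32 on the log2 scale (adjusted p = 0.0149), and Kif11, a mitotic motor, fell by 1.21 ± 0.26 (adjusted p = 0.03). The other 22 of 24 cell cycle genes did not pass, with a median over the list of -0.54. Control TAC had a median of 0.88 and BCAA-free sham one of -0.60, each against control sham. Scaled over 12 libraries, Mki67 had 32.7, 26.3 and 42.8 normalized reads in BCAA-free sham. Of the 24 genes, 18 were lower in BCAA-free TAC than in control TAC, where 16.7% of all genes were, or 13 without control TAC replicate 2. Called cell cycle genes against control sham numbered 0, 7 and 2 without control sham replicate 1, 2 and 3, and 0, 1 and 0 without BCAA-free TAC replicate 1, 2 and 3.

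Of 29 chemokines and cytokines, 16 were tested, and 3 rose and none fell, against 2.63% and 2.77% of all genes. Their median was -0.098, and 10 of the 16 log2 fold changes were under 0. Il17d rose from 104, 93.3 and 109.7 to 232, 269.5 and 197 normalized reads (1.17 ± 0.16, adjusted p = 0.00705) and was called in each fit that left out 1 library. Il33, an alarmin of stromal cells, rose by 0.90 ± 0.18 and Il34, a ligand of the macrophage growth factor receptor, by 0.77 ± 0.18 (adjusted p = 0.0231 and 0.0408). Il34 was not called with the trend removed (0.63, adjusted p = 0.0552). The complement genes C4b (0.79 ± 0.13, adjusted p = 0.0137) and C7 (-0.84 ± 0.13, 0.0126) moved in opposite directions. Vegfa, the main angiogenic factor, fell by 0.66 ± 0.12 (adjusted p = 0.019), whereas Vegfb rose by 0.62 ± 0.11 (0.0181) and Fgf16, a growth factor of heart muscle, by 0.59 ± 0.10 (0.0167). Igfbp3 rose by 0.78 ± 0.14 (0.0179). Pdgfb rose by 0.97 ± 0.22 (0.0388), a call lost with the trend removed (0.77, adjusted p = 0.141). Of these genes, Il33 and Il34 were called in 1 of the 6 fits that left out 1 library, Fgf16 and Pdgfb in 2, Vegfa, Vegfb and Igfbp3 in 3 and C4b and C7 in 4.

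The genes that break BCAA down gave 1 call against control sham. Of 28 measured, 1 was called: Abat, the GABA transaminase, which annotation also places in valine breakdown, rose from 368, 355 and 419 to 569, 594 and 588 normalized reads (0.62 ± 0.11, adjusted p = 0.0158). Bcat2, which starts the pathway, had 2902, 3060.0 and 3468 and 3810.0, 3519 and 3854 normalized reads (0.25 ± 0.10, adjusted p = 0.18). The BCKDH subunits Bckdha and Bckdhb had log2 fold changes of 0.074 ± 0.11 and 0.14 ± 0.11, its kinase Bckdk 0.12 ± 0.092 and its phosphatase Ppm1k 0.45 ± 0.19. None of these passed, though Ppm1k did with the trend of GC content and length removed (0.60, adjusted p = 0.0382), and the median over the 28 was 0.017. In control TAC the median was -0.38. Tested against control TAC, 18 of the 28 were higher in BCAA-free TAC, where 14.6% of all genes were, and 14 without control TAC replicate 2. Bckdha was higher by 0.74 (adjusted p = 0.00101), Bcat2 by 0.63 (0.000286) and Ivd by 0.66 (0.00134). Called members against control sham numbered 0, 2 and 3 without control sham replicate 1, 2 and 3, and 0, 0 and 0 without BCAA-free TAC replicate 1, 2 and 3.

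Of the amino acid response genes, 4 of 28 were called, against 5.4% of all genes, and they went both ways. ATF4 is the factor that switches on amino acid synthesis and import when an amino acid is short. Of 28 of its targets and partners, Aldh1l2, a mitochondrial folate enzyme, fell from 568, 436 and 338 to 174, 159.5 and 141 normalized reads (-1.47 ± 0.18, adjusted p = 0.00538). Mthfd2, its neighbour in mitochondrial one-carbon metabolism, had 529.8, 185 and 216 and 51.2, 101 and 111 (-1.72 ± 0.40, adjusted p = 0.0391). The call of Mthfd2 was lost in every fit that left out 1 library and with the trend removed (-1.74, adjusted p = 0.0758). Cebpb, a leucine zipper factor, rose from 681, 609 and 1117 to 2031, 2424 and 2732 normalized reads (1.62 ± 0.21, adjusted p = 0.00593), and it was higher than in control TAC by 2.19 (adjusted p = 1.91e-05). Stc2, a secreted glycoprotein, rose by 0.74 ± 0.16 (0.0298). Asns, asparagine synthetase and the standard readout of the response, had 89.5, 49.4 and 66.9 and 31.2, 51.7 and 58.9 and did not pass (-0.54 ± 0.29, adjusted p = 0.313), and neither did Atf4, Trib3, Psat1 or Chac1. Called members numbered 3, 3 and 5 without control sham replicate 1, 2 and 3, and 2, 2 and 2 without BCAA-free TAC replicate 1, 2 and 3.

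Of 23 amino acid transporters, Slc1a5, which carries glutamine, rose from 829.8, 1044 and 940.0 to 1528, 1629 and 1715 normalized reads (0.80 ± 0.11, adjusted p = 0.00705), and the glycine carrier Slc6a9 rose by 0.87 ± 0.19 (0.0314). In the mTORC1 and leucine sensing list Fnip1 (-0.58 ± 0.13, adjusted p = 0.0323) and Fnip2 (-0.76 ± 0.16, 0.0298), partners of folliculin, fell, and the other 26 of 28 did not pass. Fnip2 was not called with the trend removed (-0.67, adjusted p = 0.0765). Called members of the mTORC1 list numbered 1, 1 and 7 without control sham replicate 1, 2 and 3, and 0, 0 and 0 without BCAA-free TAC replicate 1, 2 and 3. Slc1a5 was called in 6 of those 6 fits and Slc6a9 in 2, and called transporters numbered 5 without control sham replicate 3 and 1 or 2 without each of the other libraries. None of 23 aminoacyl-tRNA synthetases was called by limma, edgeR, DESeq2 or limma-voom, with 3 at an unadjusted p under 0.05 by limma.

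Genes of the respiratory chain had small fold changes against control sham. None of 41 nuclear genes of the respiratory chain was called by limma, edgeR, DESeq2 or limma-voom, and none had an unadjusted p under 0.05 by limma. Their log2 fold changes ran from -0.20 to 0.21, with a median of -0.047. Without control sham replicate 3, 6 of the 41 were called, and without each of the other libraries 0. In control TAC the median was -0.57. Against control TAC, 39 of the 41 were higher in BCAA-free TAC, where 14.6% of all genes were. That count fell to 22 without control TAC replicate 2 and was 34 with the trend removed. Cox6a2, the heart and muscle subunit of complex IV, was higher by 0.82 (adjusted p = 0.000469). Of 20 citric acid cycle genes none was called by limma, edgeR or limma-voom and 1 by DESeq2, with 2 at an unadjusted p under 0.05 by limma, and 15 were higher than in control TAC, or 7 without its replicate 2.

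Fatty acid genes gave 1 rise and 1 fall among 32. Pdk4, the kinase that shuts off pyruvate dehydrogenase, fell from 43092, 42465 and 56994 to 19236, 31172 and 22272 normalized reads (-0.99 ± 0.18, adjusted p = 0.0198), and Slc27a1, a fatty acid transporter, rose from 6649, 8753 and 7052 to 12326, 13254 and 10386 (0.68 ± 0.13, adjusted p = 0.024). The median was -0.046, beside -0.56 for control TAC. Of the 32, 24 were higher than in control TAC, where 14.6% of all genes were, or 15 without its replicate 2. Called members against control sham numbered 0, 2 and 2 without control sham replicate 1, 2 and 3, and 0, 1 and 0 without BCAA-free TAC replicate 1, 2 and 3. Among 22 metabolic regulators, Ppargc1a, the coactivator of mitochondrial genes, fell by 0.86 ± 0.13 and Ppara, the fatty acid receptor, fell by 0.75 ± 0.18 (adjusted p = 0.0111 and 0.043). Called regulators numbered 1, 1 and 12 without control sham replicate 1, 2 and 3, and 1, 0 and 0 without BCAA-free TAC replicate 1, 2 and 3.

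A pair of bifunctional enzymes that set the level of the glycolytic activator fructose 2,6-bisphosphate moved in opposite directions. Pfkfb2, the heart form, fell from 3486, 3384 and 3726 to 1730.0, 1300.0 and 1614 normalized reads (-1.20 ± 0.12, adjusted p = 0.00163), and Pfkfb1 rose from 347, 413 and 310.5 to 832, 723 and 529.6 (0.94 ± 0.17, adjusted p = 0.0191). Slc2a1, the basal glucose transporter, rose by 0.69 ± 0.15 (adjusted p = 0.0314). Pfkfb2 was called in each fit that left out 1 library, and Pfkfb1 and Slc2a1 in 3 of 6. With Pdk4 they made 4 calls among 28 genes of glycolysis and glucose uptake.

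Iron genes included one of the clearest falls. Tfrc, the transferrin receptor that brings iron into cells (chromosome 16, 32608920 to 32632794), had 3249, 2200.0 and 2159 normalized reads in control sham and 857, 860.1 and 934 in BCAA-free TAC, with all 3 BCAA-free TAC values close together. This was a 2.82-fold fall by the fitted log2 fold change (limma, adjusted p = 0.00176). Scaled over 12 libraries, Tfrc had 938, 850.5 and 888 in BCAA-free sham and 2595, 2631 and 2987 in control TAC, so that the values on the BCAA-free diet lay together under those on the control diet. The difference from control TAC was -1.59 (adjusted p = 1.24e-05) and that from BCAA-free sham 0.025 (0.945). Hamp, which encodes the iron hormone hepcidin, went from 43.4, 6.86 and 24.2 to 90.2, 156 and 114 normalized reads (2.52 ± 0.53, adjusted p = 0.0298), and Bmp6, an inducer of hepcidin in the liver, rose by 0.66 ± 0.11 as given above. Ncoa4, the receptor that sends ferritin to lysosomes, fell by 0.49 ± 0.10 (0.0307). The ferritin genes Fth1 and Ftl1 had log2 fold changes of 0.044 ± 0.10 and -0.053 ± 0.17 and did not pass. Tfrc was called in each fit that left out 1 library and Hamp in 2 of 6, and called iron genes numbered 2, 4 and 7 without control sham replicate 1, 2 and 3, and 1, 1 and 2 without BCAA-free TAC replicate 1, 2 and 3.

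Stress and immediate early genes were mostly lower, with a wide spread in control sham. Of 27, 3 fell, 1 rose and 22 had a log2 fold change under 0, and the median was -0.62. Pim1, a kinase induced by cytokines, fell from 2020.0, 2481 and 1899 to 772, 943 and 863 normalized reads (-1.31 ± 0.12, adjusted p = 0.00163) and was called in each fit that left out 1 library. Gadd45g (-0.90 ± 0.16, adjusted p = 0.0181) and Gadd45b (-0.80 ± 0.16, 0.0251), sensors of growth arrest, also fell, and Klf2, a factor of endothelium under flow, rose from 809, 1099 and 1497 to 2620.0, 2207 and 2102 (1.06 ± 0.19, adjusted p = 0.0191). Fos had 60.0, 927 and 1299 normalized reads in control sham and 109, 108 and 143 in BCAA-free TAC, and Atf3 288, 1299 and 2578 and 172, 164 and 199. Control sham replicate 1 was the lowest of its group for both genes and replicate 3 the highest, and neither gene passed. Called members numbered 12, 3 and 9 without control sham replicate 1, 2 and 3, and 1, 1 and 2 without BCAA-free TAC replicate 1, 2 and 3.

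Other called stress genes were the cold-inducible RNA-binding proteins Cirbp (0.62 ± 0.11, adjusted p = 0.0159) and Rbm3 (0.44 ± 0.11, 0.0496) and the small heat shock protein Hspb7 (0.54 ± 0.10, 0.0206), which rose, and Hsph1 (-0.64 ± 0.093, 0.00874), which fell. Of 20 glucocorticoid-responsive genes, 2 rose and 1 fell, against 2.63% and 2.77% of all genes, and 8 had a log2 fold change under 0. Tsc22d3 (GILZ), a target of glucocorticoids, rose from 1888, 1869 and 1970.0 to 3093, 3182 and 3580.0 normalized reads (0.78 ± 0.094, adjusted p = 0.00433), and Sult1a1, a sulfotransferase, rose by 0.80 ± 0.12 (0.0105). Pdk4, given above, was the member that fell. Of 27 atrophy and autophagy genes, Trim63 (MuRF1), a ubiquitin ligase of muscle wasting, fell by 0.45 ± 0.11 (0.0487) and Fbxo30 fell by 0.59 ± 0.10 (0.0142). Gclm, of glutathione synthesis, rose by 0.48 ± 0.11 (0.0408), the single call among 24 antioxidant genes. Herpud1 was the single call of 21 unfolded protein response genes, a rise of 0.57 ± 0.14 (0.0434), and Cyp51 the single call of 19 cholesterol synthesis genes, with a log2 fold change of -0.62 ± 0.11 (0.0148). Hsph1 and Tsc22d3 were called in each fit that left out 1 library, Sult1a1 in 5 of 6, Cirbp, Fbxo30 and Cyp51 in 3, Hspb7 in 2 and Trim63, Gclm, Rbm3 and Herpud1 in 1.

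Adipocyte markers rose in some samples. Cfd (adipsin) went from 112, 57.6 and 155 to 204, 542 and 588 normalized reads (2.00 ± 0.46, adjusted p = 0.0458), Car3 from 154, 154 and 179.5 to 278, 661 and 648 (1.60 ± 0.29, 0.0184) and Cidec, of the lipid droplet, from 33.2, 39.8 and 47.0 to 64.2, 129.9 and 168 (1.48 ± 0.32, 0.0329). BCAA-free TAC replicate 1 was the lowest of its group for each, and replicates 2 and 3 lay well above it. Of the 13 markers tested, 4 rose, the fourth being the lipase Lipe (0.61 ± 0.12, adjusted p = 0.0208), and Acaca, which makes malonyl-CoA, fell (-0.69 ± 0.15, 0.0301). Adipoq, the defining hormone of adipocytes, had 36.0, 23.3 and 32.8 and 26.0, 82.7 and 139 normalized reads and did not pass (adjusted p = 0.219). Called markers numbered 0, 1 and 3 without control sham replicate 1, 2 and 3, and 5, 0 and 0 without BCAA-free TAC replicate 1, 2 and 3, and Cfd was not called with the trend removed (1.87, adjusted p = 0.0755). The share of fat tissue in the samples was not tested.

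Heart muscle markers were present in both groups. All 10 cardiomyocyte markers were measured, with a summed level of 2709189 to 2867567 normalized reads in control sham and 3007045 to 3084036 in BCAA-free TAC, with no overlap. The sum rests largely on Myh6, which did not pass and had means of 1180911 and 1468584. Ttn, another member, went the other way, with means of 179210 and 115613. Summed endothelial markers were 116628 to 127259 and 116839 to 129194, and blood cell genes 8081 to 13333 and 9570 to 12219. Eng was the single endothelial marker of 21 called. None of the blood cell genes was called by limma, edgeR, DESeq2 or limma-voom, with 3 of 8 at an unadjusted p under 0.05 by limma. None of 29 proteasome genes and none of 35 cytosolic ribosomal protein genes was called by any of the 4 tools, with 0 and 1 at an unadjusted p under 0.05 by limma.

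Among the largest falls outside the lists, Spon2, a secreted matrix protein, went from 258, 154 and 443 to 39.9, 51.7 and 54.7 normalized reads (-2.40 ± 0.33, adjusted p = 0.00705). Crybg3, for the gene ENSMUSG00000091562, 1 of 2 identifiers with that symbol in the tables, went from 646, 619.9 and 396 to 140.5, 64.2 and 49.5 (-2.81 ± 0.34, adjusted p = 0.00454). Sgcd, the delta subunit of the sarcoglycan complex that anchors the muscle membrane, went from 809, 632 and 591 to 277, 173 and 174 (-1.72 ± 0.20, adjusted p = 0.00323). Each was lower in all 3 BCAA-free TAC samples and was called in each fit that left out 1 library. The same held for Tmem171 (-2.07 ± 0.24, adjusted p = 0.0035), the zinc finger gene Zfp871 (-1.89 ± 0.23, 0.00454), the corepressor Lcor (-1.83 ± 0.25, 0.00705) and Slc41a3 (-1.62 ± 0.14, 0.00096), of a magnesium transporter family. Lmbrd2 fell by 1.72 ± 0.30 (0.0159) and was called in 4 of 6. Among the rises, Cyp2e1, a cytochrome P450 of the endoplasmic reticulum, went from 53.5, 41.1 and 57.0 to 108, 204 and 238 (1.77 ± 0.28, adjusted p = 0.0129). Tmem163, a zinc transporter, went from 72.9, 30.2 and 68.4 to 125, 239.9 and 232 (1.82 ± 0.35, adjusted p = 0.0228), and Tcf23, a helix-loop-helix factor, rose by 1.55 ± 0.33 (0.0306). Cyp2e1, Tmem163 and Tcf23 were called in 4, 4 and 2 of the 6 fits.

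**Figure D4:**
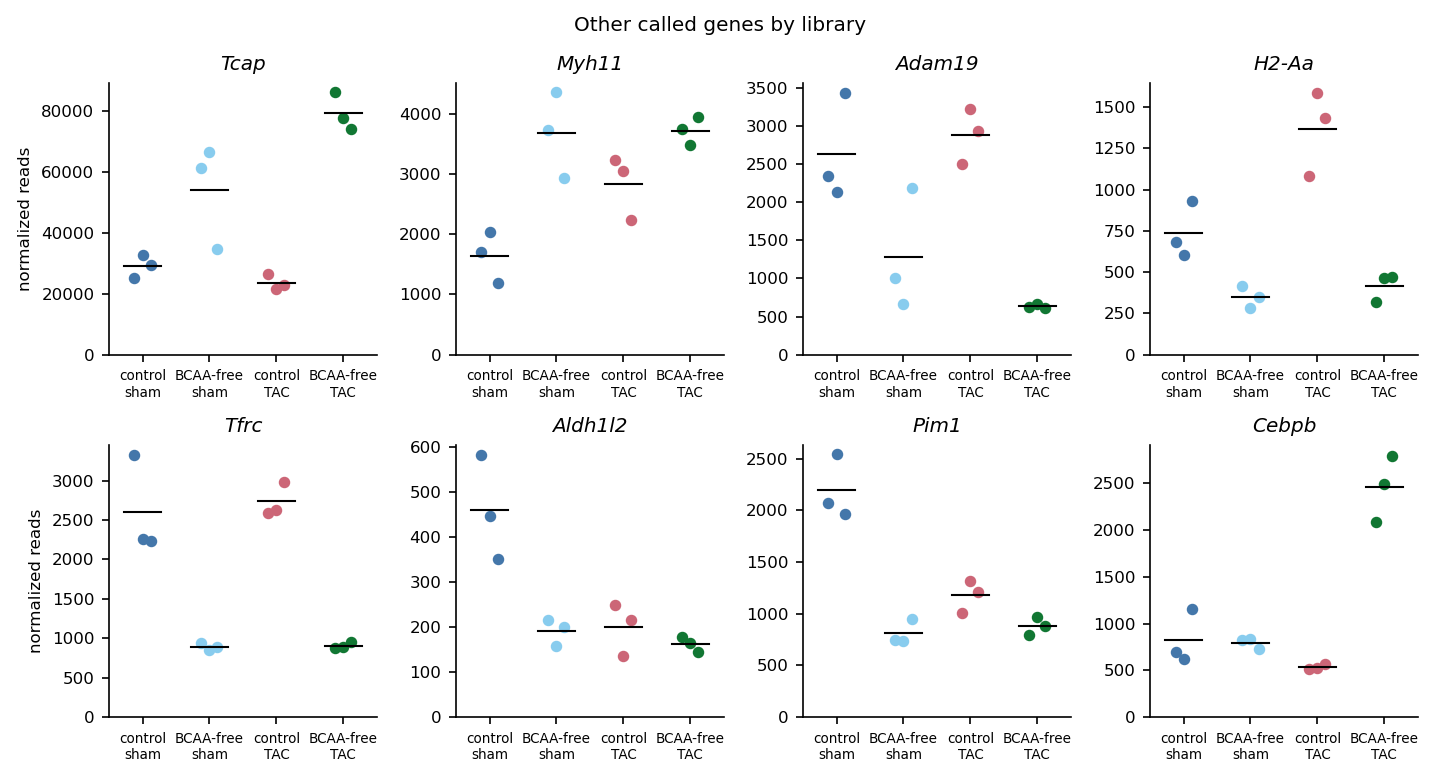
Normalized reads (linear y axes from 0, scaled over all 12 libraries) of 8 further called genes in each library of the 4 groups; points are libraries and black lines group means, n = 3. Tfrc is low in both groups on the BCAA-free diet, Aldh1l2 and Pim1 are lower in the other 3 groups than in control sham, Adam19 has its lowest and Tcap and Cebpb their highest mean in BCAA-free TAC, and the H2-Aa values of BCAA-free TAC lie under control sham and far under control TAC.

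By distance over all genes, BCAA-free TAC and control TAC lay about as far from control sham as each other. The root mean square log2 difference between a BCAA-free TAC and a control sham library had a median of 0.520 over 9 pairs (0.454 to 0.555). Control TAC lay at 0.533 from control sham (0.452 to 0.765) and BCAA-free sham at 0.470 (0.410 to 0.599). The 3 control sham libraries lay at 0.372 to 0.497 from each other, so that the spread inside control sham was nearly as large as its distance to the other groups. BCAA-free TAC libraries lay at 0.325 to 0.357 from each other, at 0.434 from BCAA-free sham (median of 9 pairs) and at 0.561 from control TAC. In the fit to all 12 libraries, 4752 genes (31.3%) differed between BCAA-free TAC and control TAC and 65 (0.428%) between BCAA-free TAC and BCAA-free sham. These distances are descriptions without a test, and the comparisons share their control sham samples.

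The lists showed where BCAA-free TAC lay relative to control TAC. Beside control sham, control TAC had medians of 1.44 for collagens, 1.62 for matricellular proteins, 0.74 for interferon-stimulated genes and -0.57 for the respiratory chain, and BCAA-free TAC had -0.08, 0.43, -0.26 and -0.047. In other lists it was BCAA-free TAC that had the median farther from 0 than control TAC. The median was 0.49 for clock output genes (control TAC -0.20, BCAA-free sham 0.25) and 0.60 for atrial genes (-0.21 and 0.01). It was 0.61 for adipocyte markers (0.024 and 0.57) and -0.62 for immediate early genes (-0.16 and -0.44), so that BCAA-free sham lay near BCAA-free TAC for both of these lists. Smooth muscle markers had nearly the same median in both, 0.45 in control TAC and 0.42 in BCAA-free TAC.

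**Figure D5:**
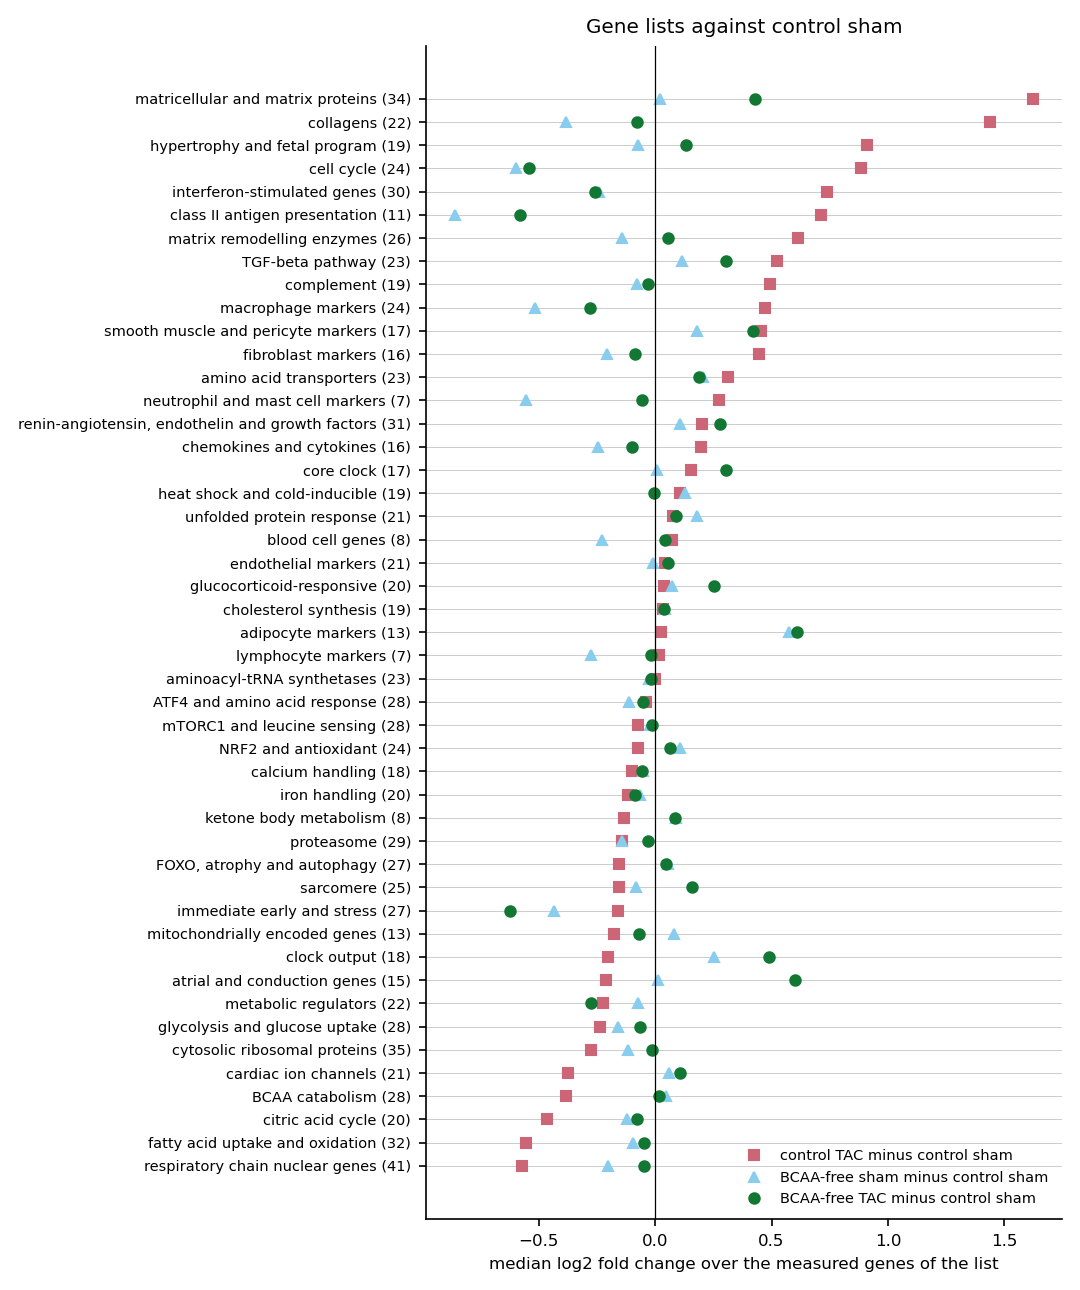
Median log2 fold change against control sham (x axis) over the measured genes of each of 47 lists (y axis, number of genes in brackets) for control TAC (squares), BCAA-free sham (triangles) and BCAA-free TAC (circles). Matrix, hypertrophy and interferon lists stand far to the right and the respiratory chain far to the left in control TAC, while the BCAA-free TAC circles of these lists lie between -0.26 and 0.43; the 3 sets share their control sham samples.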

How the data were processed

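Heart RNA was polyA-selected and sequenced by the authors, and Trimmomatic 0.36, STAR 2.5.2b, Subread 1.5.2, DESeq2, GRCm38 and mm10 are named per the submitters' processing notes, with no roles given. The unit of the deposited signal values is not given in the sources used here. Within each table of 6 libraries every value was a whole multiple of 1 step per library (100% of values within 0.01), as gene counts divided by a size factor would be, so they were read as such and whole reads were recovered by division, and a library's reads were the same in its tables. Of the 15215 genes in both tables that compare TAC with sham, 15089 with a mean normalized value of at least 10 were tested. Reads were scaled by median-of-ratios size factors over the 6 libraries, and log2(value + 1) was tested with limma 3.58.1 in R 4.3.3 (trend and robust, two-sided, Benjamini-Hochberg over all genes). A fit with 4 group means over 12 libraries (15196 genes) gave the differences from the other groups. As the deposited values are not counts, tests of the recovered reads (edgeR 4.0.16, DESeq2 1.42.0, limma-voom) are alternatives, beside other scalings, filters, pseudocounts, a replicate block, removal of each library's GC and length trend, and leaving out each library. Fold changes on this scale understate the change of low genes. Genes were annotated from GENCODE M21 (GRCm38), which matched 99.8% of those tested. Overlapping genes and near-identical copies may share reads, since strand use in counting is not given in the sources used here. Genes named are the 12 largest rises and falls among called genes with a mean of at least 100, groups that do not overlap and a symbol that is no gene model or pseudogene, up to 5 called members of each list by p (2 where none was called) and a fixed set of standard markers; other list members named were chosen after their values were seen. The comparison, the lists and the rules were chosen with earlier results of these data known. Total reads limit the precision of low genes, and groups of 3 cannot reach an exact permutation p under 0.1. On simulated data the procedure found no change in the wrong direction, but the share of false calls was above the nominal level of the adjusted p. Some genes that the rule names are not reported here.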

Additional observations from a re-analysis of the deposited data

How the results depend on the processing

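No named gene with a call changed direction under any alternative run, while Acta1, Atp2a2, Bckdha, Col1a1, Csf3r and Nppb, which were not called, changed sign in at least 1. Against control sham, the 815 calls became 1348 with a replicate block, 1223 with the block and the GC and length trend removed, 1484 by DESeq2 and 187 with a log2 fold change of at least 1 required, and ranged from 114 to 2255 when 1 library was left out. The other settings gave 727 to 1217 calls. Deviations of same-numbered libraries correlated weakly, at 0.020, 0.128 and 0.176. Control sham replicates 2 and 3 correlated best with their same-numbered BCAA-free TAC library, and replicate 1 with BCAA-free TAC replicate 2 (0.0817). With 3 libraries per group these values cannot settle whether replicate numbers pair the samples, so the block is given here alone. Under the block Cfd, Dkk3 and Mthfd2 lost their calls and Klf15 and Rpl3 gained one. Of the 115 named genes called, TMM scaling lost 1 (Rbm3), library totals 3 (Mrc1, Ppara and Trim63), edgeR 1 (Rbm3), limma-voom 7 (Cfd, Cidec, Dkk3, Mthfd2, Rbm3, Tagln and Thbs4) and the removal of the GC and length trend 10 (among them Cfd, Cyr61, Dkk3, Fnip2, Il34, Mrc1, Mthfd2, Pdgfb and Ttn) and gained 1 (Ppm1k). With the spread estimated over all 12 libraries 19 were lost (among them Car3, Cfd, Ciart, Cidec, Cirbp, Col18a1, Dkk3, Fbln5, Fnip2, Herpud1, Hsph1, Il33, Myh7, Pfkfb1, Rcan1, Stard10, Thbs4 and Wisp2). Leaving out control sham replicate 1, 2 and 3 lost 66, 25 and 7, and leaving out BCAA-free TAC replicate 1, 2 and 3 lost 55, 66 and 71. The causes were not tested, beyond fewer samples in the latter fits. BCAA-free TAC against control TAC gave 4752 calls, 3193 to 4485 without 1 library and 4299 with the trend removed, alternatives chosen after seeing the data. Depth limits genes of few reads, and 16 of 23 lymphocyte markers were not in the tested set.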
